A study of Schizosaccharomyces pombe with 12 samples.

Results

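The transcriptome of the fission yeast *Schizosaccharomyces pombe* was compared before and 4 h after a move from YES, a complex medium based on yeast extract, to ePMGT(+PO4), a defined medium. Both groups were of 1 wild-type haploid *h-* strain, with 3 libraries of poly(A)+ RNA each, which the study describes as biological replicates. By the study's methods its strains share mutant alleles of *ade6*, *his3*, *leu1* and *ura4*, in both groups here. The 0 h group (WT_0h) was log-phase culture in YES at 30 °C, and the 4 h group (WT_4h) was cells that had been spun down, washed and grown for 4 h in ePMGT(+PO4). The defined medium supplies glucose, phosphate, glutamate, thiamine, other vitamins, adenine, uracil, histidine, lysine, leucine and an amino acid mix. No YES culture was taken at 4 h, so the medium, the handling and the time in culture cannot be told apart. Groups taken at 2 h and 8 h (3 libraries each) are used only to place the 4 h values.

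A feature was kept when its average in either group reached 100 normalized reads. This left 5358 of 6988 annotated features, 4801 of them coding and 557 noncoding. Features count as coding unless their identifier marks an RNA, so annotated pseudogenes and dubious genes are among the coding ones. Another 1630 features (355 coding and 1275 noncoding) stayed under 100 in both groups. Levels are the authors' mean of each group in normalized reads, with no value per library, so neither an SD nor an overlap between libraries can be given. Each change is the log2 of the 4 h average over the 0 h average, written as x ± y with y the deposited standard error of the log2 change. "Rose" and "fell" mean that this ratio passed a 2-sided normal test at a Benjamini-Hochberg adjusted p of 0.05, taken over 6103 features. "Called" means a change of 2-fold or more in addition. Levels are compared between times for 1 gene and not between genes, since reads also grow with transcript length. As in any bulk measurement, fewer cells making an RNA and less RNA per cell cannot be told apart.

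A yeast cell in rich extract finds its nutrients as a mix of peptides, nucleosides, metals and vitamins, whereas a defined medium offers a fixed set of simple compounds. Fission yeast sets its uptake proteins by what it can find. Fep1 represses iron uptake genes when iron is plentiful, Php4 represses genes for iron-using proteins when iron is scarce, Cuf1 activates copper transporters when copper is scarce, and Loz1 represses zinc uptake when zinc is plentiful. Arginine, proline, uracil and purines can also be broken down as nitrogen sources by dedicated enzymes.

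Most RNAs were close to their YES level at 4 h. Of the kept features, 79.6% lay within 1.2-fold, 95% within 1.5-fold and 98.1% within 2-fold, and the median log2 change was -0.0048. Called features were 90 higher (1.68% of those kept) and 12 lower (0.224%). Among coding features 73 were called higher (1.52%) and 6 lower (0.125%), each count with 1 annotated pseudogene. Among noncoding features 17 were called higher (3.05%) and 6 lower (1.08%). Rises reached further than falls: 31 features were at least 4-fold higher and 14 at least 8-fold higher, while 1 feature was at least 4-fold lower.

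Small shifts were common. At any fold 1189 features rose (22.2%) and 1019 fell (19%), with 22.8% and 18.5% of coding and 17.2% and 23.7% of noncoding features, and 991 of the rises and 949 of the falls were under 1.5-fold. The split depends on scaling, because the averages summed to 16.9 M reads at 0 h and 17.6 M at 4 h. With both totals set equal, which moves every log2 value by -0.0578, 784 features rose and 1594 fell. The share of rises among changed features was then 33% in place of 53.9%. Precision followed level up to 10000 reads: the median standard error was 0.15 for features peaking between 100 and 300 reads and 0.0455 between 3000 and 10000. Of these 2 bins 31.6% and 59% rose or fell. Above 10000 reads the median standard error was 0.0536, and 44.3% rose or fell. Noncoding features had a median standard error of 0.135, against 0.0607 for coding genes.

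**Figure D1:**
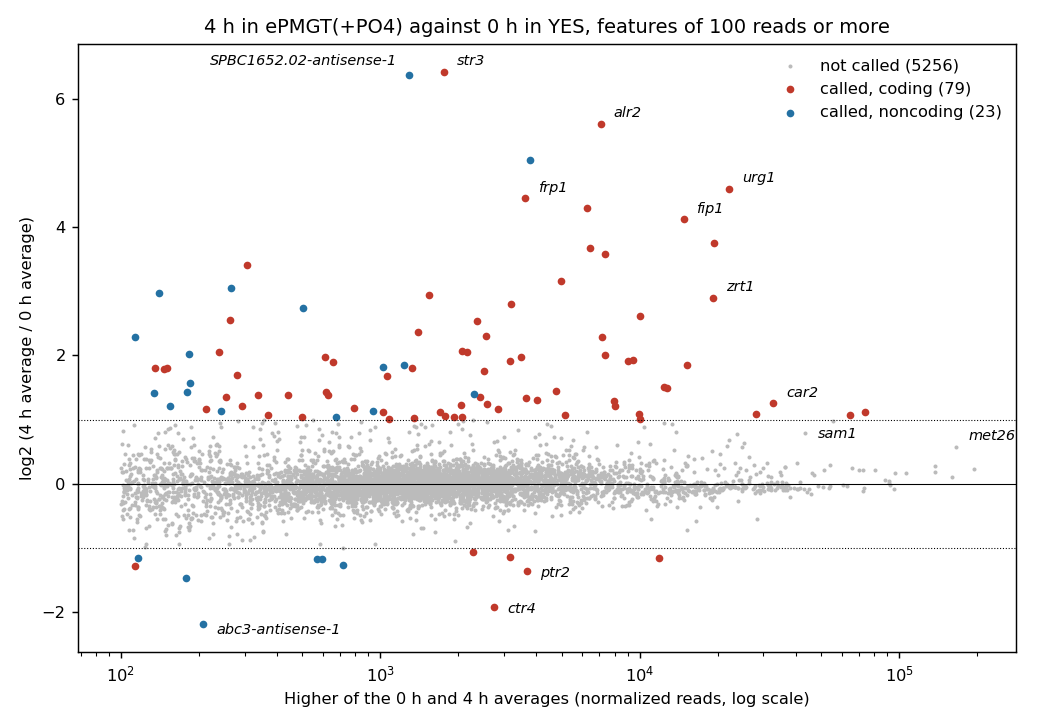
The log2 change at 4 h (vertical axis) is plotted against the higher of the 0 h and 4 h averages in normalized reads (horizontal log axis), with 1 point for each of the 5358 kept features. Called coding (79) and noncoding (23) features are coloured, and dotted lines mark a 2-fold change: the features called higher reach 6.42 on the log2 scale, while those called lower end at -2.19.

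Genes for uptake of iron and heme held the largest changes of any class. Of its 12 members at 100 reads or more, 10 rose, 0 fell and 8 were called higher, with a median log2 change of 1.80 beside -0.0048 over all kept features. All 13 members together took 0.0554% of reads at 0 h and 0.253% at 4 h. The heme transporter *str3* (SPAC1F8.03c) went from 20.5 to 1758 normalized reads, an 85.9-fold rise (6.42 ± 0.27, adjusted p = 3.26e-121). The ferric-chelate reductase *frp1* (SPBC1683.09c) went from 166 to 3626 reads (4.45 ± 0.12, adjusted p = 7.28e-276). Reduced iron is taken in by the multicopper oxidase *fio1* (SPAC1F7.08), which stood at 318 and 6268 reads (4.30 ± 0.09), with its partner permease *fip1* (SPAC1F7.07c), at 845 and 14766 reads (4.13 ± 0.08). The siderophore transporter *str1* (SPBC4F6.09) stood at 499 and 6407 reads (3.68 ± 0.09). These 5 plasma membrane genes all changed by more than 10-fold.

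Members inside the cell changed less. The mitochondrial iron transporter *mmt1* went from 272 to 1393 reads (2.36 ± 0.08), the vacuolar heme exporter *abc3* from 1097 to 2587 (1.24 ± 0.06) and the siderophore synthesis enzyme *sib2* from 872 to 2044 (1.23 ± 0.07). Siderophore synthesis did not move as a whole: *sib1*, the ferrichrome synthetase, read 0.05 ± 0.06 and *sib3* 0.08 ± 0.05, and neither passed the test. The cell-surface heme protein *shu1* was under the threshold, with 3.46 reads at 0 h and 38.1 at 4 h.

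The iron regulators were measured beside their targets. *php4* went from 957 to 2434 reads (1.35 ± 0.06, adjusted p = 1.41e-94) and was called higher, while *fep1* fell from 2320 to 1750 reads (-0.41 ± 0.07, adjusted p = 1.73e-07). In the class of heme synthesis and iron-sulfur cluster assembly 12 of 26 members fell and 2 rose, with a median of -0.11. The exception by size was the scaffold protein gene *isu1*, called higher from 4967 to 10037 reads (1.01 ± 0.04), a call that was lost with totals set equal. Of the falls in that class, *atm1*, the mitochondrial exporter, read -0.26 ± 0.05 and *mge1* -0.32 ± 0.04. With standard errors 2 times as large the falls in this class numbered 1.

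The zinc transporter *zrt1* and both copper transporter subunits moved in opposite directions. The zinc transporter *zrt1* (SPBC16D10.06) went from 2573 to 19183 reads, 7.45-fold higher (2.90 ± 0.04), and its regulator *loz1* rose from 928 to 1155 (0.32 ± 0.08, adjusted p = 5.65e-04). The copper transporter subunits were 2 of the 6 coding features called lower, 1 of which is a pseudogene. *ctr4* (SPCC1393.10) stood at 2749 reads at 0 h and 728 at 4 h (-1.92 ± 0.22, adjusted p = 1.07e-16), and *ctr5* (SPAC1142.05) at 2285 and 1098 (-1.06 ± 0.13, adjusted p = 1.44e-14). The copper regulator *cuf1* held 1097 and 1072 reads and did not pass (-0.03 ± 0.06). The metallothionein *zym1*, which binds zinc, read 0.12 ± 0.13 and did not pass either.

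Breakdown of nitrogen compounds was the coding class with the most called genes. Of 31 members 19 rose, 5 fell and 10 were called higher (median 0.29), and the class went from 0.542% to 1.18% of reads. The alanine racemase *alr2* (SPBC359.02) had 145 reads at 0 h and 7081 at 4 h, 48.8-fold more (5.61 ± 0.14), while its paralog *alr1* held 427 and 448 and did not pass. The uracil-regulated genes *urg1* (SPAC1002.19), named as a GTP cyclohydrolase, and *urg2* (SPAC1002.17c), a uracil phosphoribosyltransferase, went from 915 to 22129 reads (4.60 ± 0.22) and from 1428 to 19298 (3.76 ± 0.19). *uck2*, of the same enzyme family as *urg2*, went from 457 to 3188 (2.80 ± 0.20), and the uridine ribohydrolase *urh1* from 519 to 2166 (2.06 ± 0.22). Pyrimidine salvage was not raised throughout, since *urh2* did not pass (0.08 ± 0.08) and the cytosine deaminase *SPCC965.14c* fell from 509 to 352 reads (-0.53 ± 0.10).

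Arginine use ran through several of these rises. The arginase *car1* (SPBP26C9.02c) went from 614 to 7323 reads (3.58 ± 0.12, adjusted p = 5.42e-198) and the ornithine transaminase *car2* from 13740 to 32723 (1.25 ± 0.04, adjusted p = 9.06e-216). The agmatinase *SPAPB24D3.03* went from 845 to 3176 reads (1.91 ± 0.06), and the second arginase, *aru1*, rose from 13915 to 23746 (0.77 ± 0.05). Downstream enzymes of proline use rose by less: *put2* read 0.64 ± 0.06 and *put1* 0.26 ± 0.05. Glutamate enzymes split, with the NADP-linked dehydrogenase *gdh1* called higher from 13167 to 28082 reads (1.09 ± 0.07) and the NAD-linked *gdh2* at 1100 and 1103. Uricase *uro1*, an enzyme of purine breakdown, went from 378 to 1321 reads (1.81 ± 0.11), whereas 2 urease accessory genes, *ure6* and *ure7*, both fell by 0.40 on the log2 scale. Of the 3 asparaginase genes, *SPBPB21E7.09* rose (0.47 ± 0.11), and *SPAC977.12* (-0.55 ± 0.07) and *SPBPB8B6.05c* (-0.59 ± 0.07) fell. The class therefore named by breakdown held members in both directions.

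**Figure D2:**
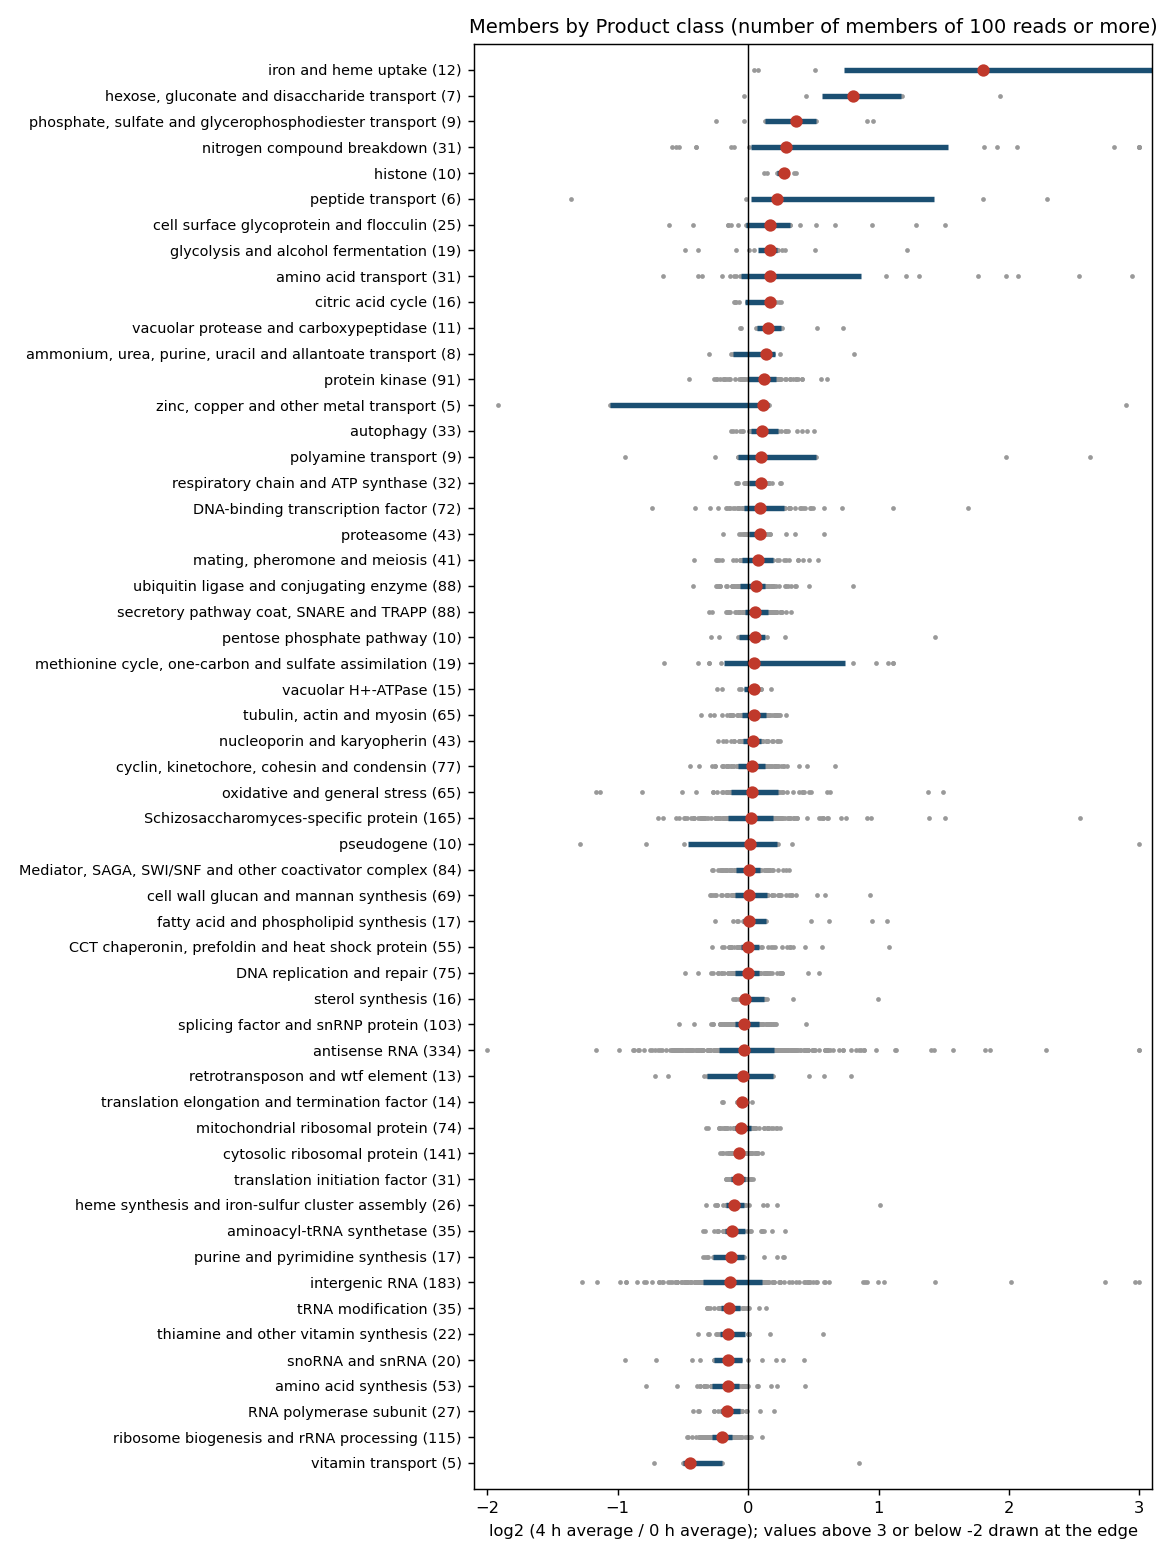
Each row is 1 class with at least 5 members at 100 reads or more, ordered by median. Grey points are members placed by log2 change at 4 h (values beyond -2 or 3 drawn at the edge), blue bars span the quartiles, red points are class medians and the vertical line is the median of all kept features. Iron and heme uptake stands at the top with a median of 1.80, its bar running past the edge, while ribosome biogenesis lies near the foot at -0.20.

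Transporters of organic nutrients rose in part. Of 31 amino acid transporters 15 rose, 5 fell and 8 were called higher (median 0.17). The largest was *isp5*, from 200 to 1540 reads (2.94 ± 0.22), followed by *SPBPB2B2.01* from 409 to 2366 (2.53 ± 0.13) and *per1* from 491 to 2059 (2.07 ± 0.10). The proline transporter *put4* went from 738 to 2504 (1.76 ± 0.13). The basic amino acid transporters were not among them: *can1* did not pass (-0.03 ± 0.06) and *cat1* fell from 3289 to 2092 reads (-0.65 ± 0.06). The leucine transporter *agp3* held 419 and 401 reads and did not pass.

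Peptide carriers diverged within 6 members. The oligopeptide transporter *isp4* went from 1465 to 7175 reads (2.29 ± 0.12) and *opt3* from 43.1 to 150 (1.80 ± 0.22), both called higher. The peptide transporter *ptr2* (SPBC13A2.04c) was called lower, from 3691 to 1442 reads (-1.36 ± 0.13, adjusted p = 1.38e-24). Of 9 genes for polyamine transport 4 rose and 2 fell, the spermidine transporters *mfs3*, from 1637 to 10068 reads (2.62 ± 0.15), and *mfs1*, from 885 to 3494 (1.98 ± 0.06), being called higher. *SPBC36.01c*, a gene of the same named family, fell from 953 to 497 reads (-0.94 ± 0.07). Carriers of ammonium, purines and uracil showed 3 rises and 2 falls in 8 and 0 called; *amt1* rose (0.81 ± 0.07) and *amt2* fell (-0.30 ± 0.05), and the uracil transporter *fur4* did not pass (-0.13 ± 0.07).

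Sugar transporters rose as a class. Of 7 hexose, gluconate and disaccharide transporters 6 rose and 3 were called higher, with a median of 0.81. The high-affinity glucose transporter *ght5* went from 2484 to 9451 reads (1.93 ± 0.11), *ght4* from 350 to 793 (1.18 ± 0.10) and the gluconate transporter *ght3* from 95.2 to 213 (1.17 ± 0.14). *ght8*, with the most reads of the class at both times, held 18016 and 17575 and did not pass (-0.04 ± 0.05). All 6 rises remained with totals set equal.

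Vitamin carriers went the other way, with 4 of 5 falling and a median of -0.45. The biotin transporter *vht1* fell from 15242 to 9246 reads (-0.72 ± 0.07), the pantothenate transporter *liz1* from 1761 to 1243 (-0.50 ± 0.05) and the thiamine transporter *thi9* from 1375 to 1009 (-0.45 ± 0.08). The exception was the B6 vitamer transporter *SPCC576.17c*, which rose from 321 to 580 (0.85 ± 0.10). Genes for synthesis of thiamine and other vitamins fell in 10 of 22 and rose in 2, with a median of -0.15.

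The phosphate transporters, *pho1* and *pho7* moved by less than 2-fold. The transporter *pho84* rose from 9592 to 12391 reads (0.37 ± 0.05), *tgp1*, a glycerophosphodiester transporter, from 366 to 525 (0.52 ± 0.07), and the acid phosphatase *pho1* fell from 18606 to 15869 (-0.23 ± 0.06, adjusted p = 2.37e-04). Of the other phosphate transporters *pho841* fell (-0.25 ± 0.06), and *pho842* (0.13 ± 0.08) and *pho843* (-0.03 ± 0.05) did not pass. Their regulator *pho7* rose from 2031 to 2864 (0.50 ± 0.07). The sulfate transporters showed larger ratios, *SPAC24H6.11c* rising from 1331 to 2588 reads (0.96 ± 0.06) and *sul2* from 840 to 1582 (0.91 ± 0.08). A pair of predicted extracellular nucleotidases was called higher, *SPBPB2B2.06c* from 29 to 307 reads (3.40 ± 0.18) and *SPAC1039.02* from 4231 to 15272 (1.85 ± 0.18). Among the lifespan genes *ecl2* rose slightly (0.16 ± 0.05), *ecl1* fell (-0.48 ± 0.07) and *ecl3* stayed under the threshold with 24.6 and 36.2 reads.

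The methionine cycle carried the largest gain in reads. This cycle makes methionine from homocysteine, activates it to S-adenosylmethionine (SAM), the methyl donor of the cell, and recovers homocysteine after the methyl group is used. Of 19 members of the class, which also covers folate and sulfate enzymes, 8 rose, 7 fell and 3 were called higher, and it went from 1.68% to 2.53% of reads. The methionine synthase *met26*, chosen after its values were seen, rose from 110525 to 165299 reads (0.58 ± 0.06), the largest gain in reads of any kept feature. The SAM synthetase *sam1* went from 30858 to 64812 (1.07 ± 0.04, adjusted p = 2.20e-165) and the serine hydroxymethyltransferase *shm1* from 34283 to 74184 (1.11 ± 0.05), both called higher. The adenosylhomocysteinase *SPBC8D2.18c* rose from 28272 to 55666 (0.98 ± 0.05).

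Around this core, folate enzymes split by gene. The methylenetetrahydrofolate reductase *met9* rose (0.68 ± 0.05) and *met11* did not pass (0.10 ± 0.05), *thf1* rose (0.80 ± 0.04) and its relative *ade9* fell (-0.30 ± 0.05), and *shm2* fell (-0.13 ± 0.05) where *shm1* was called higher. Sulfate reduction went down or did not pass, with *met14* at -0.21 ± 0.05 and *met10* at -0.39 ± 0.08 falling and *sir1* and *sua1* not passing. The phospholipid methyltransferases, which use SAM to turn phosphatidylethanolamine into phosphatidylcholine, rose together: *cho1* was called higher from 2458 to 5144 reads (1.07 ± 0.05) and *cho2* rose from 6442 to 12428 (0.95 ± 0.03). Apart from these, *pps1*, *psd2* and *fas2* rose and *psd1* fell among 17 lipid synthesis genes, whose median was 0.0044. The choline branch enzymes *pcy1* (2449 and 2448 reads) and *ept1* (0.04 ± 0.04) did not pass.

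**Figure D3:**
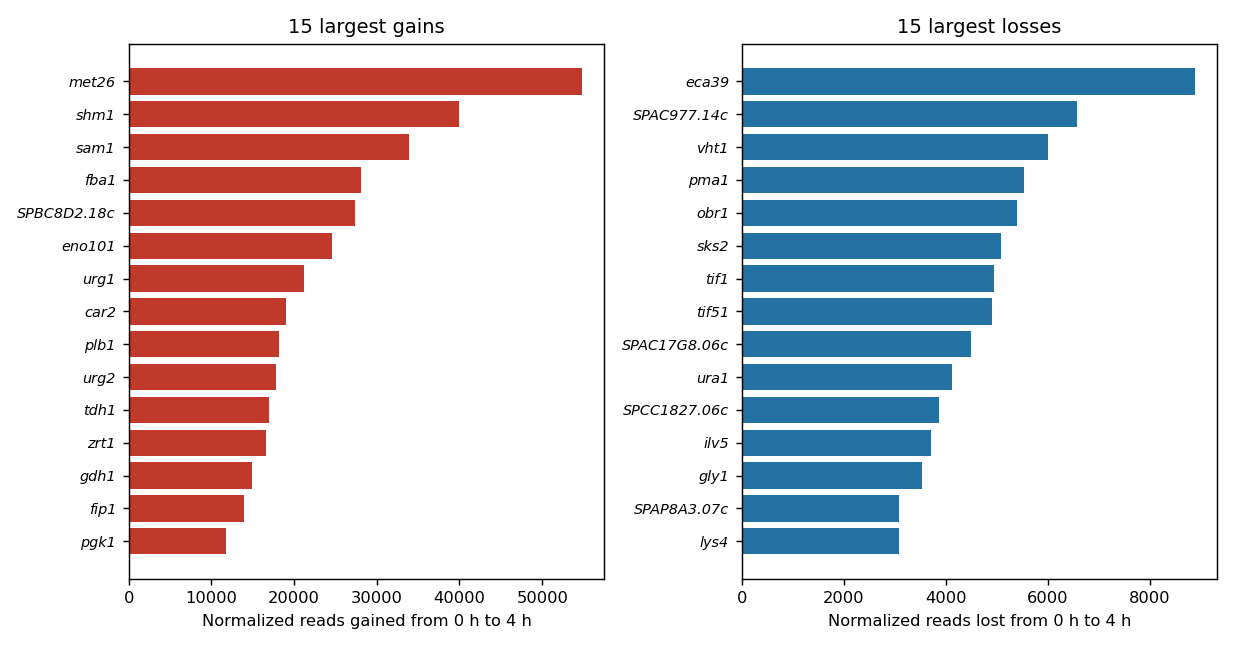
Bars give the difference of the 4 h and 0 h averages in normalized reads for the 15 features with the largest gains (left) and the 15 with the largest losses (right), on separate axes that start at 0 and with no error shown. The gain is largest for *met26*, from 110525 to 165299 reads, and the loss for *eca39*, from 28228 to 19350.

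With the averages as scaled by the authors, most of the gain in reads lay outside the called genes. Gains summed to 1400071 reads and losses to 707174, and their net of 692897 is the larger total at 4 h. Gains, losses and their shares below therefore depend on scaling, and were not taken with totals set equal. The features called higher went from 0.989% to 2.94% of reads and held 25% of all reads gained, while the 25 features with the largest gains held 33%. Genes in this ranking were chosen after their values were seen. Next to the methionine cycle it holds *plb1*, a phospholipase B, from 25054 to 43244 reads, and glycolytic genes whose ratios did not pass: the aldolase *fba1* (0.23 ± 0.14), the enolase *eno101* (0.28 ± 0.13) and the dehydrogenase *tdh1* (0.19 ± 0.14). Their adjusted p-values missed the threshold, and they are not counted as changes. Losses were smaller and more spread, the 25 largest holding 14.1% of all reads lost, led by *eca39*, *SPAC977.14c*, *vht1* and the proton pump *pma1*, from 72302 to 66777 reads, whose ratio did not pass (-0.11 ± 0.06).

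Synthesis of amino acids and nucleotides fell by small steps. Of 53 amino acid synthesis genes 33 fell and 2 rose, with 0 called and a median of -0.16. The branched-chain aminotransferase *eca39* fell from 28228 to 19350 reads (-0.54 ± 0.05) and the ornithine carbamoyltransferase *arg3* from 2237 to 1707 (-0.39 ± 0.06). The aspartate semialdehyde dehydrogenase *SPCC1827.06c* read -0.37 ± 0.04 and the dihydroxy-acid dehydratase *SPAC17G8.06c* -0.37 ± 0.05. The *his3* gene fell from 281 to 163 reads (-0.78 ± 0.21), but the strain carries the mutant allele *his3-D1*. Which part of the gene these reads cover cannot be told from the averages, so they may not stand for an intact mRNA. The 2 rises were *met17* (0.43 ± 0.06) and *cys2* (0.22 ± 0.05), both of sulfur amino acid synthesis. Of 17 purine and pyrimidine synthesis genes 11 fell and 4 rose, with a median of -0.13. Falls included *ura3* (-0.34 ± 0.04) and *ura5* (-0.33 ± 0.04) of the uracil pathway and *ade8* (-0.32 ± 0.04) and *gua2* (-0.31 ± 0.03) of the purine pathway, whereas 3 genes for the shared precursor phosphoribosyl pyrophosphate rose, such as *prs5* (0.27 ± 0.06). With standard errors 2 times as large 14 and 6 falls remained in these 2 classes.

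Ribosome production fell in most of its genes, each by less than 2-fold. Of 115 genes for ribosome biogenesis and rRNA processing 86 fell and 1 rose (*gar2*, 0.11 ± 0.04), with 0 called, a median of -0.20 and a lowest value of -0.47 for *utp25*. Other large falls were *sqt1*, from 2970 to 2159 reads (-0.46 ± 0.05), and *mis3*, from 3110 to 2352 (-0.40 ± 0.06). The count was 99 with totals set equal, 60 with standard errors 1.5 times and 19 with standard errors 2 times as large. RNA polymerase subunits fell in 16 of 27 and rose in 0 (median -0.16), led by *rpa43* (-0.42 ± 0.05) and *rpa12* (-0.38 ± 0.06) of polymerase I, which makes rRNA. With standard errors 2 times as large 2 falls of these subunits remained. The polymerase III repressor *maf1* rose from 455 to 690 reads (0.60 ± 0.07).

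Ribosomal proteins themselves barely moved. Among 141 genes for cytosolic ribosomal proteins 15 fell and 0 rose, with a median of -0.07 and a range from -0.21 to 0.10. Their sum took 17.7% of reads at 0 h and 16.3% at 4 h. The count of falls was 55 with totals set equal and 0 with standard errors 1.5 times as large. Aminoacyl-tRNA synthetases fell in 20 of 35 and rose in 2 (median -0.12), tRNA modification enzymes fell in 15 of 35 and rose in 1 (-0.15), and translation initiation factors fell in 15 of 31 and rose in 0 (-0.07). With standard errors 2 times as large the falls in these 3 classes numbered 3, 1 and 0. Mitochondrial ribosomal proteins were mixed, with 7 rises and 10 falls in 74.

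Several classes leaned upward by similar small amounts. All 10 histone genes rose, from 0.12 ± 0.05 for the variant *pht1* to 0.37 ± 0.03 for *hhf2*, with a median of 0.28, and 8 rose with totals set equal. With standard errors 2 times as large 5 rose. The 3 histone H3 and 3 histone H4 genes are near-identical copies, so reads may be shared among them. Protein kinases rose in 47 of 91 and fell in 6 (median 0.12), where 22.8% of all coding features rose and 18.5% fell. With totals set equal 28 kinase genes rose and 13 fell, and with standard errors 2 times as large 7 rose and 1 fell. Transcription factor genes rose in 29 of 72 and fell in 3, with *cbf12*, from 331 to 1064 reads (1.68 ± 0.09), and *toe1*, from 471 to 1021 (1.11 ± 0.09), called higher and *toe3* rising by less (0.72 ± 0.05). With standard errors 2 times as large 15 of these genes rose and 1 fell.

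Some classes of protein turnover leaned the same way, beside 22.8% of all coding genes that rose and 18.5% that fell. Autophagy genes rose in 12 of 33 and fell in 0 (median 0.11), with *atg20* at 0.51 ± 0.09, *clg1* at 0.45 ± 0.07 and the kinase *atg1* at 0.42 ± 0.07. With totals set equal 8 rose and 0 fell, and with standard errors 2 times as large 3 rose and 0 fell. Vacuolar proteases rose in 7 of 11 and fell in 0, among them *isp6* (0.72 ± 0.13) and *cps1* (0.52 ± 0.05). With standard errors 2 times as large 1 protease gene rose. The proteasome rose in 15 of 43 and fell in 1 (median 0.09), but with totals set equal 4 rose and 2 fell. Ubiquitin ligases and conjugating enzymes rose in 20 of 88 (22.7%), no more often than coding genes at large, and fell in 9 (10.2%). With totals set equal 11 rose and 20 fell. Genes of coats, SNAREs and tethers in the secretory pathway rose in 24 of 88 and fell in 4, a lean that was lost with totals set equal, where 12 rose and 11 fell.

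Carbon and energy genes changed little. Glycolysis and fermentation held 6 rises and 1 fall in 19 (median 0.17), with *gpd3* called higher from 3449 to 8024 reads (1.22 ± 0.12) and the hexokinase *hxk2* rising from 13410 to 19082 (0.51 ± 0.05). The citric acid cycle rose in 9 of 16 and fell in 0, all between 0.16 and 0.25, but gave 5 rises and 4 falls with totals set equal. The respiratory chain rose in 9 of 32 and fell in 0, against 3 and 3 with totals set equal. In the pentose phosphate class the glucose dehydrogenase *gcd1* was called higher from 228 to 617 reads (1.44 ± 0.10), and *rki1* (-0.29 ± 0.04) fell.

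Stress genes did not move in 1 direction. Of 65 members 17 rose (26%) and 15 fell (23%), near the 22.8% and 18.5% of all coding features. With 2 called each way, the class had a median of 0.03. The sulfiredoxin *srx1* went from 169 to 441 reads (1.38 ± 0.12) and the short chain dehydrogenase *SPAC521.03* from 4528 to 12752 (1.49 ± 0.11). The glutathione transferase *gst2* (SPCC965.07c) was called lower from 3152 to 1434 (-1.14 ± 0.08), as was the aldo/keto reductase *SPAC977.14c* from 11867 to 5299 (-1.16 ± 0.07). Catalase *ctt1* fell (-0.27 ± 0.11) and the trehalose synthesis gene *tps3* rose (0.48 ± 0.08). Of 55 chaperone genes 9 rose (16.4%) and 5 fell (9.1%), both below the shares of all coding features. Among them *hsp9* was called higher from 4707 to 9967 reads (1.08 ± 0.13) and *ssa1* rose (0.57 ± 0.09).

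The mating genes measured did not settle the mating type on the label. M-factor is the pheromone made by cells of the minus mating type, and its gene *mfm2* held 730 and 784 reads (0.10 ± 0.20, not passing), while *mfm1* (29.2 and 26.5) and *mfm3* (21.3 and 11.9) stayed under the threshold. The P-factor gene *map2*, of the other mating type, held 157 and 136 reads (-0.20 ± 0.15, not passing). The mating type gene *mat1-Mc* was listed at 0 in both groups, where near-identical copies in the genome can keep reads from being assigned. Of 41 mating and meiosis genes 11 rose and 2 fell, and with totals set equal 5 rose and 5 fell.

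A set of 22 coding genes called higher belonged to no class. Among them were *urg3*, of the uracil-regulated group, from 1830 to 7367 reads (2.01 ± 0.14), the drug efflux transporter *bfr1* from 2378 to 8988 (1.92 ± 0.06) and the thioesterase *the4* from 519 to 2554 (2.30 ± 0.15). A feature annotated as a pseudogene, *SPBPB21E7.08*, was called higher from 558 to 4978 reads (3.16 ± 0.09), and the transporter pseudogene *SPBPB10D8.03* lower from 113 to 46.4 (-1.29 ± 0.25). These genes, apart from the pseudogenes, were chosen after their values were seen.

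Called features stood beside each other in the gene order at 14 places, which held 32 of the 102 called features (1.9% of those kept were called). In the RefSeq order of a later assembly the longest run had 5 called higher in a row: *SPAC1002.16c*, a carboxylic acid transporter, *urg2*, *urg3*, *urg1* and the regulator *toe1*. *fip1* and *fio1* were next to each other, as were *isp5* and *mmf2*, and *SPCC794.03* and *SPCC794.04c*, a pair of amino acid transporter genes. The annotated intergenic RNAs beside *str3* (*SPNCRNA.604*, 17.9 to 140 reads) and *zrt1* (*SPNCRNA.1622*, 75.8 to 505 reads) were called higher with their neighbours. *SPNCRNA.1622* overlaps *zrt1* in that annotation, so reads of the pair may not be fully separated. The same holds for *SPNCRNA.1318* with *ght4*, *SPNCRNA.934* with *SPNCRNA.935*, and *abc3* with *abc3-antisense-1*. Some runs mixed directions: *abc3* was called higher and its antisense lower, and *SPNCRNA.934* lower beside *SPNCRNA.935* and *per1*, both higher. Runs were looked for after the values were seen.

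Noncoding features included the second largest rise. *SPBC1652.02-antisense-1* had 15.5 reads at 0 h and 1288 at 4 h (6.38 ± 0.23, adjusted p = 1.09e-169), while the amino acid transporter gene it is named after, *SPBC1652.02*, fell from 2499 to 1957 reads (-0.35 ± 0.07). The intergenic *SPNCRNA.935*, annotated as a possible alternative UTR and lying beside *per1*, went from 114 to 3763 reads (5.05 ± 0.17), and its other neighbour *SPNCRNA.934* was called lower from 717 to 297 (-1.27 ± 0.09). Further large rises were *rpl1002-antisense-1*, from 31.9 to 265 reads (3.05 ± 0.20), and *SPNCRNA.604* (2.97 ± 0.24). Whether the counting used strand was not stated in what was read here, so reads of a gene and its antisense partner may not be fully separated.

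Antisense features gave 60 rises, 71 falls, 10 called higher and 2 called lower in 334, with a median of -0.03. A sense gene could be named for 291, and in 50 of these pairs both members passed the test. Both rose in 11 pairs, both fell in 10, the antisense rose and the sense fell in 9, and the antisense fell and the sense rose in 20. The antisense of the heme exporter, *abc3-antisense-1*, had the largest fall of any kept feature, from 208 to 45.5 reads (-2.19 ± 0.21, adjusted p = 1.99e-23), while *abc3* was called higher. Likewise *SPAC24H6.11c-antisense-1* went from 570 to 254 reads (-1.17 ± 0.10) while the sulfate transporter gene *SPAC24H6.11c* rose, *mfs1-antisense-1* fell from 148 to 89.1 (-0.74 ± 0.18) and *alr2-antisense-1* from 247 to 180 (-0.46 ± 0.14). Other antisense features rose beside a sense gene that did not pass, among them *sty1-antisense-1*, from 428 to 936 reads (1.13 ± 0.09) with the stress kinase gene *sty1* at 4699 and 4929. These pairs were chosen after their values were seen.

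**Figure D4:**
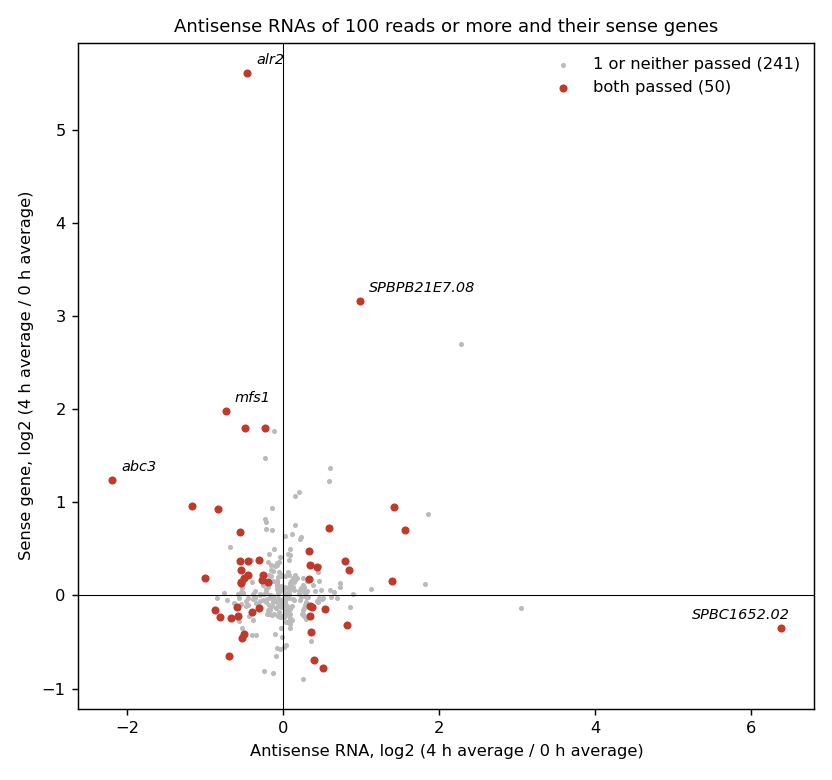
The log2 change at 4 h of the sense gene (vertical axis) is plotted against that of its antisense feature (horizontal axis), 1 point for each of 291 pairs, in red where both members passed the test (50 pairs). Points are labelled by the sense gene: *SPBC1652.02* lies at -0.35 with its antisense at 6.38, and *abc3* at 1.24 with its antisense at -2.19.

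Intergenic RNAs fell in 50 of 183 (27.3%) and rose in 26 (14.2%), with a median of -0.14, against 23.7%, 17.2% and -0.07 over all noncoding features. The 18S and 28S ribosomal RNA features *SPRRNA.46*, from 178 to 64.7 reads (-1.46 ± 0.25), and *SPRRNA.49*, from 598 to 265 (-1.18 ± 0.27), were called lower. These genes are repeated in the genome, and poly(A)+ selection removes most of their RNA. Small nucleolar and nuclear RNAs fell in 5 of 20 and rose in 2. The Tf2 and *wtf* elements, counted as coding and sharing sequence between copies, fell in 4 of 13 (30.8%) and rose in 3 (23.1%). Of all coding features 18.5% fell and 22.8% rose.

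Few RNAs differed 2-fold or more between 2 h and 4 h. In a contrast of 4 h with 2 h rebuilt from the averages and the deposited errors, 6 features were called higher (0.112%) and 8 lower (0.149%), while 502 rose (9.37%) and 500 fell (9.33%) at any fold. Still higher at 4 h were *alr2*, from 2830 to 7081 reads (1.32 ± 0.13), *frp1*, from 1774 to 3626 (1.03 ± 0.11), *gcd1*, from 279 to 617 (1.14 ± 0.10), *SPCC794.04c*, from 267 to 610 (1.19 ± 0.12), and *SPBC1652.02-antisense-1*, from 411 to 1288 (1.65 ± 0.09). Lower at 4 h than at 2 h were *urg2*, from 40135 to 19298 reads (-1.06 ± 0.18), *SPAC1039.02*, from 36168 to 15272 (-1.24 ± 0.18), *isp5*, from 4218 to 1540 (-1.45 ± 0.21), and *ecl1*, from 1241 to 599 (-1.05 ± 0.07). The urea transporter *SPBC23G7.13c* held 74.1 reads at 0 h, 249 at 2 h and 72.6 at 4 h (-1.78 ± 0.19 for 4 h against 2 h).

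Between 4 h and 8 h 15 features were called higher (0.281%) and 3 lower (0.0562%), while 655 rose (12.3%) and 859 fell (16.1%) at any fold. The alcohol dehydrogenase *adh4* went from 5082 to 22033 reads (2.12 ± 0.06) after standing at 4627 at 0 h, and the invertase *inv1* from 136 to 390 (1.52 ± 0.16). *SPAC977.05c* went from 29 to 308 reads (3.41 ± 0.35), *lsd90* from 1346 to 4262 (1.66 ± 0.21), *SPAPJ695.02* from 264 to 808 (1.61 ± 0.08) and *mfm2* from 784 to 1675 (1.10 ± 0.20). Lower at 8 h were *SPAC6C3.03c*, from 102 to 37.3 (-1.45 ± 0.19), and *SPAC9G1.14*, from 125 to 56.1 (-1.16 ± 0.18). The iron genes *str3*, *fio1* and *fip1* were not called between 4 h and either neighbouring time. From 2 h to 4 h, however, *fio1* (0.48 ± 0.08) and *fip1* (0.46 ± 0.07) rose by less than 2-fold, while *str3* did not pass (-0.05 ± 0.20). Between 4 h and 8 h none of these iron genes passed.

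**Figure D5:**
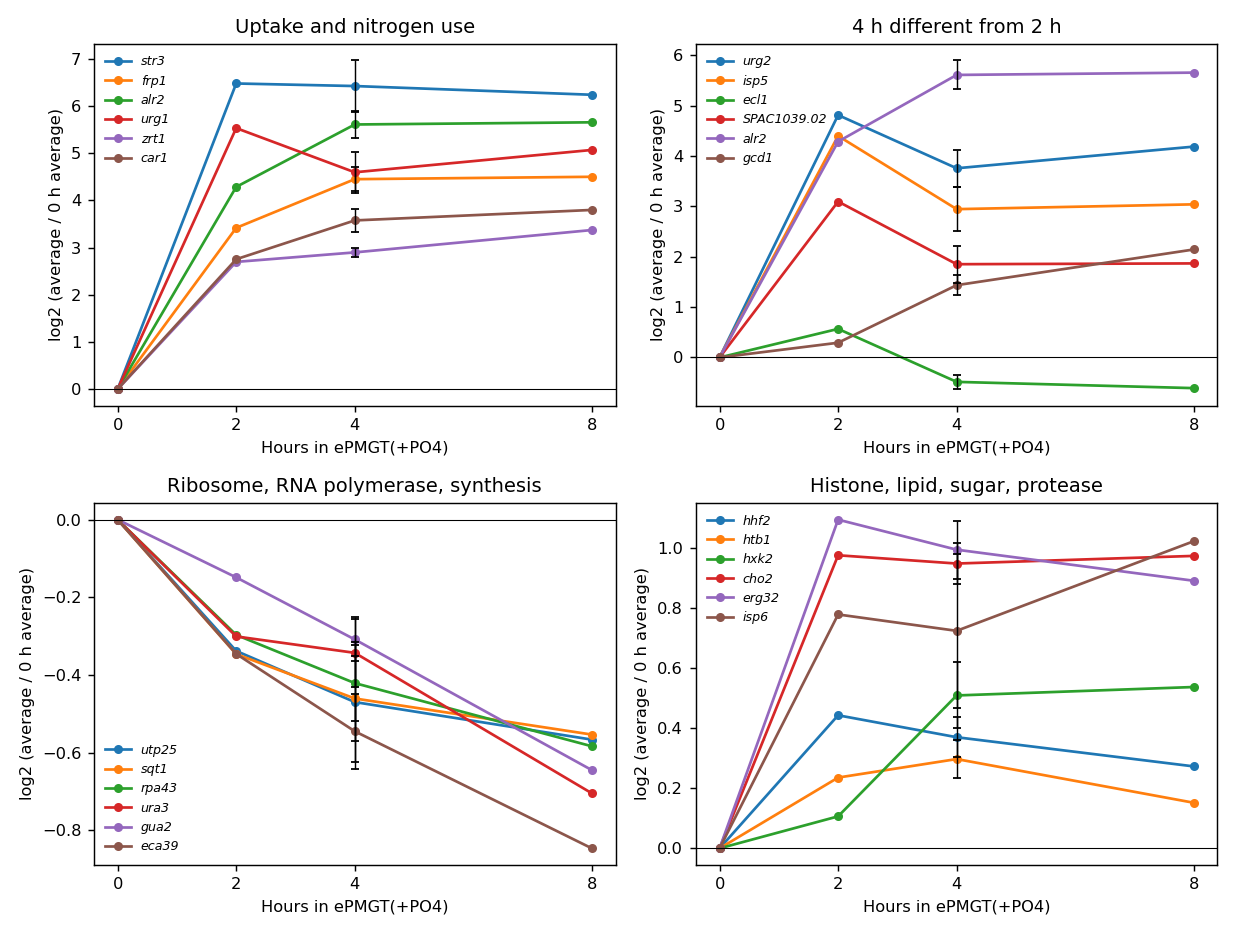
The log2 change against 0 h (vertical axis) of named genes is drawn at 0, 2, 4 and 8 h (horizontal axis), with bars at 4 h of 2 standard errors. *alr2* and *frp1* climb from 2 h to 4 h, *isp5* and *urg2* come down, and the synthesis genes *ura3*, *gua2* and *eca39* lie below 0 at 4 h.

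At the edge of the threshold, the features just under it were *vta1-antisense-1* (99.3 reads in the higher group), *rpl20-antisense-1* (99.5), *meu14* (99.6) and *SPNCRNA.1216* (99.97), with log2 changes of 0.30, -0.09, 0.70 and 1.08. Just inside stood *SPNCRNA.778* (100.1), *SPNCRNA.1088* (100.3), *SPAC212.04c* (100.6) and *mug98* (100.8), with log2 changes of 0.25, -0.32, -0.27 and 0.18.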

How the data were processed

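Per the labels and the study's methods, the authors prepared stranded poly(A)+ libraries, mapped paired reads with HISAT2 2.1.0 to assembly ASM294v2, counted reads over exons with HTSeq 0.10.0 (strand setting not given in the sources used here), then fitted DESeq2, whose version was likewise not stated. In the deposited tables the authors give each group's average as signal, meaning counts over size factors, and standard errors of log2 fold changes. They hold no value per library. The log2 fold changes, Wald scores and p-value columns of the authors were not used. The mean over the fit points to further libraries, since its lowest ratio to the mean of the 4 groups was 0.571 (30 features); these libraries are not analysed here and enter the standard errors.

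The log2 ratio (4 h average over 0 h average) was divided by the deposited standard error, and the 2-sided normal p was adjusted by Benjamini-Hochberg over 6103 features whose averages were above 0 and had a mean of 10 or more (Python 3.11.15, pandas 2.3.3, scipy 1.17.1). P-values rest on 3 libraries a group and on the authors' dispersion estimate. The count test and limma would need data for single libraries, so neither was run and the test differs from the count model that would be the usual choice. Contrasts with 2 h and 8 h used standard errors rebuilt from a dispersion solved from the deposited ones. For 4 h against 0 h the rebuilt errors had a median of 0.991 times the deposited errors. All comparisons with 0 h share its 3 libraries. The test was checked on simulated data, with errors rebuilt from the dispersion used to draw them. That check does not cover the deposited standard errors used for 4 h against 0 h.

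The 56 classes were filled by words in the product names, 2146 coding genes at 100 reads or more belonging to at least 1 class and 2655 to none. Class words were corrected after the product names were read and before class values were computed. The members and lists were chosen with earlier results of these data known. Named features follow a rule: the 10 largest called changes of coding genes and 5 of noncoding features each way, up to 4 passing members with the largest change per class and the member nearest the class median, 21 regulators and nutrient genes, and the 5 largest called changes of coding genes each way between neighbouring times. Class members beyond these were named to show the rest of a class, after their values were seen. Gene order came from RefSeq for assembly ASM294v3, where 6836 features were matched. No coordinates are given, because that build differs from the authors'. Alternatives were minimum averages, folds, a pseudocount, scaling, a test against 2-fold, larger standard errors and another adjustment.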

Additional observations from a re-analysis of the deposited data

Results flagged for a closer look

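A test of the difference itself set these genes apart at 4 h from a neighbouring time, although both times are in the same medium; each value is the log2 difference. Between 2 h and 4 h the level went up for *SPBC1652.02-antisense-1* (1.65), *alr2* (1.32), *SPCC794.04c* (1.19), *gcd1* (1.14) and *frp1* (1.03). It went down for *SPBC23G7.13c* (-1.78), *isp5* (-1.45), *SPAC1039.02* (-1.24), *urg2* (-1.06) and *ecl1* (-1.05). Between 4 h and 8 h the level went up for *SPAC977.05c* (3.41), *adh4* (2.12), *lsd90* (1.66), *SPAPJ695.02* (1.61), *inv1* (1.52) and *mfm2* (1.10), and down for *SPAC6C3.03c* (-1.45) and *SPAC9G1.14* (-1.16).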

How the results depend on the processing

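The 90 features called higher became 198 at 1.5-fold, 47 at 3-fold and 59 when tested against a 2-fold change. The 12 called lower became 20 and 28 with a minimum average of 50 and with none, 70 at 1.5-fold, 2 at 3-fold and 2 when tested against a 2-fold change. Rises at any fold (1189) numbered 784 with equal totals, 599 and 322 with standard errors 1.5 and 2 times as large, and 59 against a 2-fold change. Falls (1019) numbered 1594 with equal totals, 457 and 173 with the larger standard errors, 662 with the Benjamini-Yekutieli adjustment and 2 against a 2-fold change. For 244 named features 1220 values were taken under equal totals, centring on the median, a pseudocount of 10 and the larger standard errors. Of these 1060 kept their direction and side of the threshold, and 160 no longer passed the adjusted p of 0.05. That 0 changed direction was fixed by the settings for features that passed. A pseudocount and larger standard errors cannot turn a sign. Equal totals and centring moved values by -0.0578 and 0.0048, less than the smallest passing rise (0.0783) and fall (-0.0749). Of 336 class medians 34 moved by more than the typical standard error of their members. Most of these moves came from scaling: with equal totals 24 medians moved and 32 stayed the same. The rest came from minimum averages of 200 (3) and 500 (7). No paired analysis was possible because the files give group averages and no values per library. For the same reason leaving out each replicate in turn was not possible. Noncoding features were measured less precisely, with a median standard error of 0.135 against 0.0607 for coding features. Whether depth limited what could pass among them was not tested.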
